A study of Saccharomyces cerevisiae with 48 samples.

Results

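The mating-type genes of budding yeast lie at 3 places on chromosome III. HML carries HMLALPHA1 and HMLALPHA2, MAT carries MATALPHA1 and MATALPHA2 in the gene table used here, and HMR carries HMRA1. These 5 genes were taken by name from the RefSeq table of assembly R64, out of 6002 nuclear protein-coding genes. The set was chosen by earlier values of these data, namely higher bTMP cover of HMLALPHA2 and MATALPHA2 in rrm3 strains and of HMLALPHA2 in sen1 strains. Cover in the rrm3 and sen1 contrasts is therefore described below, with no test. HMRA2, the partner of HMRA1 at HMR, is shown for comparison.

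In textbook terms, a haploid cell expresses the genes at MAT, while HML and HMR hold spare copies that the Sir proteins keep silent. The alpha1 protein switches on alpha-specific genes. The alpha2 protein, with Mcm1, represses a-specific genes, and with a1 it represses haploid-specific genes in diploids. The alpha1 and alpha2 genes are transcribed away from each other from a stretch between them, and a1 and a2 have the same layout. HML and MAT alpha share this whole block, and a2 has the same sequence as the end of alpha2. A read from such a block can be placed at more than one locus, and the authors' handling of such reads was not among the information at hand. Alpha-factor, which was used for the S-phase cultures, arrests only cells of mating type a, so those cultures would be MATa. The labels give no mating type for any strain. In MATa cells the MATALPHA entries describe sequence carried at HML, with the end of alpha2 present also in a2. Such cells would carry a1 and a2 at MAT too, where the gene table lists only the alpha genes. Peaks placed over HMRA1 could then hold reads from MAT. Differences in the MAT allele between strains, differences in read placement and effects of a mutation cannot be told apart at these genes.

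The study mapped Rpb1, the catalytic subunit of RNA polymerase II, by chromatin immunoprecipitation, and mapped under-wound DNA by pull-down of biotinylated trimethylpsoralen (bTMP), a compound that intercalates into it. Rpb1 was mapped in S phase in strains labelled sen1rrm3, sen1, rrm3 and wild type. These strains were also mapped with bTMP, in S phase, during log growth and after a shift to 32 °C. Further bTMP libraries came from log-phase sen1rrm3top1, rrm3top1, sen1top1 and top1 cells, and from 32 °C cultures of sen1rrm3top2-1, rrm3top2-1, sen1top2-1 and top2-1. Sen1 and Rrm3 are helicases acting in transcription termination and at replication forks, and Top1 and Top2 are topoisomerases. For S phase, cells arrested with alpha-factor were released at 23 °C and collected 45 to 50 min later. Log cells had 2.5 h in YPD. The 32 °C cultures grew at 25 °C for 1.5 h before 1 h at the higher temperature. The labels do not say which sen1, rrm3 or top1 alleles were used. Each strain and condition had 1 library, with no replicates, and the 24 input libraries were not analysed here.

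The data are peak lists, and cover means the percentage of a gene's base pairs under peaks. The 4 Rpb1 lists held 2016 to 2136 peaks over 18.9% to 20.2% of the nuclear genome. In the 20 bTMP lists there were 2678 to 4901 peaks, over 7% to 25.9%. In 14 bTMP lists peaks were narrow and closely spaced (median width 234 to 262 bp), and in 6 they were broad and widely spaced (599 to 685 bp), which raises cover wherever a broad peak lies. The 6 were all 4 S-phase lists plus 2 from 32 °C by their labels, sen1 and sen1rrm3. Peak names inside the 4 S-phase lists carry the letters IPA, those inside the 2 others carry IPB, and those of the remaining 14 carry neither. Of 190 pairs of bTMP lists, sen1rrm3 at 32 °C and in S phase overlapped most (shared over joint base pairs 0.761), followed by sen1 at 32 °C and in S phase (0.656). Whether those 2 lists hold 32 °C cells was not tested. The S-phase wild-type list overlapped the 5 other broad lists at 0.219 to 0.355, against 0.479 to 0.761 among those 5. No bTMP peak lay over RRM3 in the 10 rrm3 lists, and 7 of the 10 others had one. In log phase TOP1 had 10.8% bTMP cover in sen1rrm3top1 and 0% in rrm3top1, sen1top1 and top1, against 41.4% in sen1rrm3, 41.3% in rrm3, 44.2% in sen1 and 14.3% in wild type. The sen1rrm3top1 list thus had a peak over TOP1 that the other top1 lists lacked, and which allele it carries was not tested.

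No Rpb1 peak touched any of the 5 genes, in any of the 4 strains. HMLALPHA1, HMLALPHA2, MATALPHA1, MATALPHA2 and HMRA1 each had 0% cover in sen1rrm3, sen1, rrm3 and wild type, and so did HMRA2 and the stretches between the paired genes. Among all protein-coding genes, 40.7% had Rpb1 cover in sen1rrm3, 42.7% in sen1, 41.1% in rrm3 and 40.8% in wild type, and 49.5% in at least 1 of them, so most genes of a list are at 0%. The nearest Rpb1 peak lay 3503 to 4293 bp from the HML genes over the 4 strains, 4888 to 4958 bp from the MAT genes and 3837 to 7055 bp from the HMR genes. Of the annotated neighbours, GEX1, VBA3, YCL068C, CHA1, BUD5, YCR041W, TAF2, OCA4, YCR095W-A and the tRNA gene YNCC0014W beside HMR also had 0% in all 4 lists. GIT1, a transporter gene past HMR, had 0% in sen1rrm3, sen1 and rrm3 and 26.8% in wild type. In these S-phase lists the MAT, HML and HMR entries all read 0%, so Rpb1 peaks did not separate them. Alpha-factor arrest requires MATa cells, in which the MATALPHA entries would not be the expressed copy. Active and silent copies were therefore not compared here. A gene transcribed below the peak threshold would also read as 0%.

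Genes that mating type controls gave no clearer sign of a cell's type. Of 7 a-specific genes, only STE6, which exports the a-factor pheromone, had Rpb1 cover, with 3.8% in sen1rrm3, 4.34% in sen1, 0% in rrm3 and 0% in wild type. MFA1, MFA2, STE2, BAR1, AGA2 and ASG7 had 0% in all 4. The 4 alpha-specific genes, MF(ALPHA)1, MF(ALPHA)2, STE3 and SAG1, also had 0% in all 4 lists. The marker lists therefore did not tell the mating types apart in any strain. Of 11 haploid-specific and regulator genes, 4 were touched in sen1rrm3, 4 in sen1, 3 in rrm3 and 3 in wild type. For scale here and for the silencing genes below, the shares over all protein-coding genes were 40.7%, 42.7%, 41.1% and 40.8%. MCM1, the partner of alpha1 and alpha2, was covered at 86.4% in sen1rrm3, 85.4% in sen1, 100% in rrm3 and 98.7% in wild type. FUS3, the mating kinase, named here after its values were seen, had 34.1% in sen1rrm3, 42.8% in sen1, 0% in rrm3 and 0% in wild type. STE4 and STE18, the G-protein beta and gamma subunits, were covered in every strain, at 61.0% to 88.9%. Of 8 silencing genes, RAP1 (86.1% to 91.2%) and ABF1 (9.06% to 32.1%) were touched in all 4 lists, and SIR1, SIR2, SIR3, SIR4, ORC1 and SAS2 in none.

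bTMP peaks, in contrast, were found at all 3 loci, and most regularly inside HMRA1. Whether the reads under the peaks over HMRA1 came from HMR or from an a1 copy at MAT was not tested. The a1 gene was touched in 20 of 20 bTMP lists, which holds for 8.68% of protein-coding genes. In log phase its cover was 35.5% in sen1rrm3top1, 34.9% in rrm3top1, 36.8% in sen1top1, 34.9% in top1, 34.3% in sen1rrm3, 33.1% in rrm3, 34.1% in sen1 and 33.1% in wild type. These 8 values lie within 4 points of each other. In S phase cover was 63.7% in sen1rrm3, 63.9% in rrm3, 73.7% in sen1 and 100% in wild type. At 32 °C it was 34.1% in sen1rrm3top2-1, 34.7% in rrm3top2-1, 32.9% in sen1top2-1, 34.7% in top2-1, 64.1% in sen1rrm3, 35.1% in rrm3, 100% in sen1 and 34.3% in wild type. All 14 closely spaced lists were at 32.9% to 36.8% and all 6 widely spaced lists at 63.7% to 100%, with no overlap.

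The regularity comes from a peak at a fixed place. In the 14 closely spaced lists the peak over HMRA1 began between 294005 and 294012 on chromosome III and ended between 294171 and 294183, with a width of 160 to 179 bp. Positions are taken from the authors' peaks, with the first base as 1, and the build is not stated. By the authors' score, 1.33% to 46.5% of a list's peaks scored as high as the peak over HMRA1, with a median of 5.93% over the 20 lists. Further peaks recurred beside it. A peak past the end of a1, starting at 294512 to 294526 and ending at 294698 to 294712, was present in 9 of the 14 lists. On the far side of a2, 13 of the 14 had a further peak, with a median start of 292284 and a median end of 292506. In S phase the wild-type list had 1 peak over all of a1 and 78.3% of a2 (293257 to 294569), and sen1 had 1 from 293265 to 294193.

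**Figure D1:**
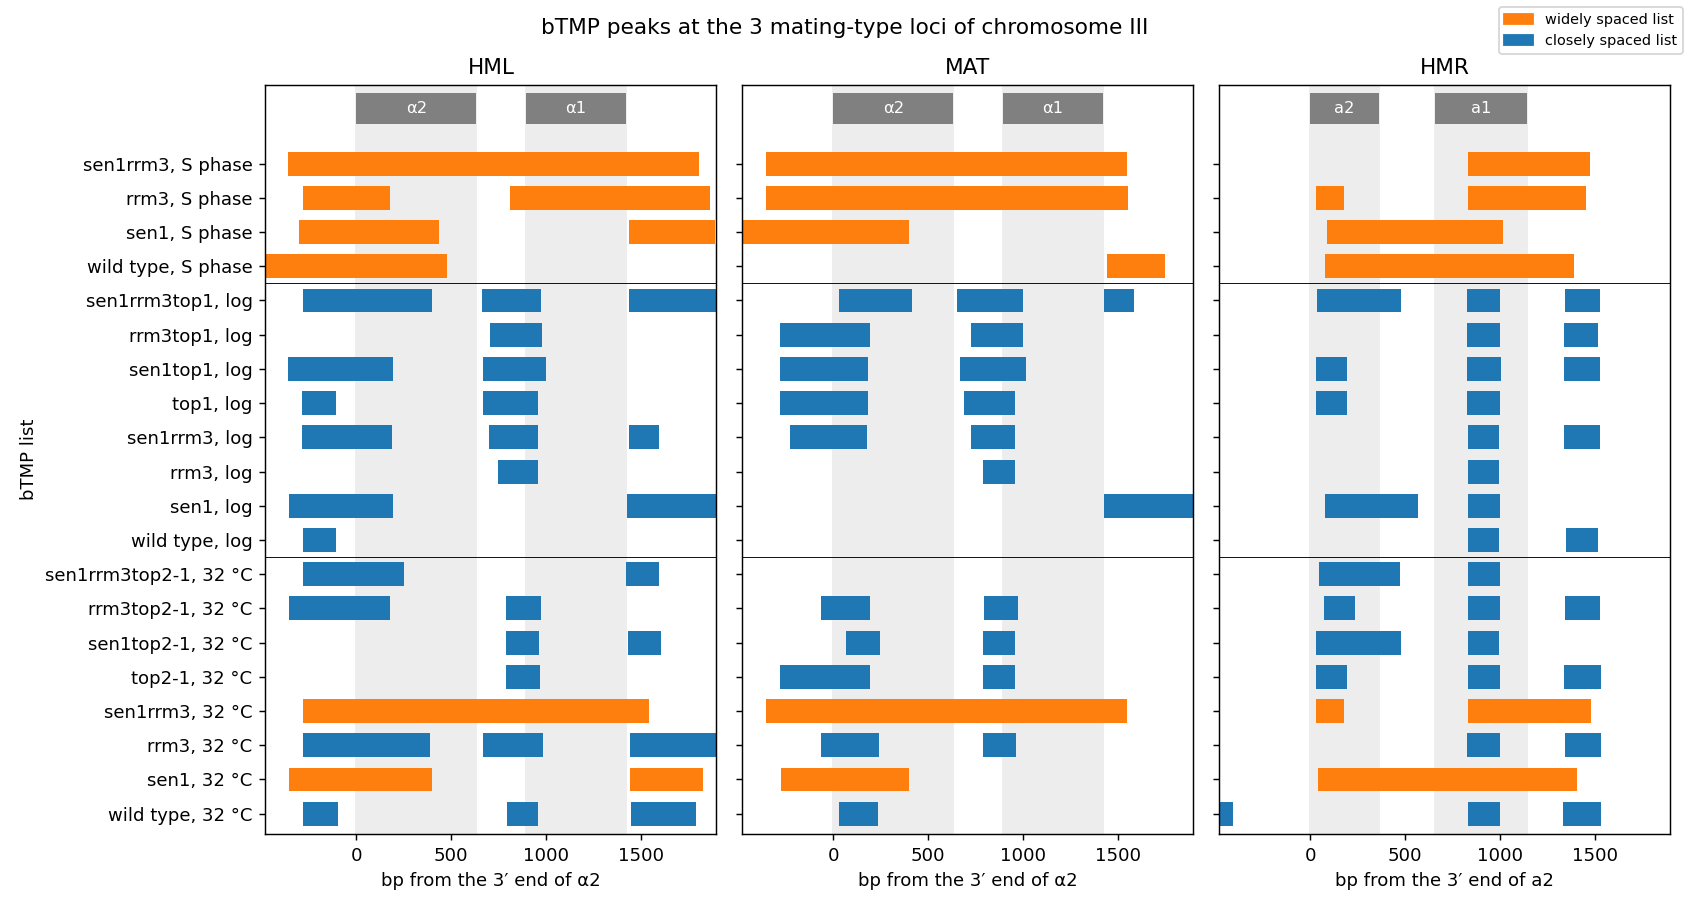
bTMP peaks (bars) in each of the 20 lists at HML, MAT and HMR, by distance in bp from the 3′ end of alpha2 or a2, with the genes as grey boxes and widely and closely spaced lists in different colours. Bars are clipped at the edges of the window. The peak in a1 is present in all 20 lists, and the peak between alpha2 and alpha1 in 14 at HML and 13 at MAT.

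At HML and MAT the peaks were less regular. HMLALPHA1 was touched in 14 lists, HMLALPHA2 in 13, MATALPHA1 in 13 and MATALPHA2 in 15, where the median protein-coding gene was touched in 9. Of all protein-coding genes, 36.7%, 39.6%, 39.6% and 33.5% were touched at least as often, in the same order. Averaged over the 20 lists, cover was 36.0% ± 34.2 for HMLALPHA2, 38.2% ± 33.3 for MATALPHA2, 22.8% ± 33.9 for HMLALPHA1, 22.6% ± 34.2 for MATALPHA1 and 47.4% ± 22.2 for HMRA1 (SD, n = 20 lists). Of all protein-coding genes, 10.3% had a mean as high as HMLALPHA2 and 21.9% as high as HMLALPHA1. Within a list, HMRA1 exceeded HMLALPHA1 by 24.5 ± 36.5 points on average (SD, n = 20 lists), and it was higher in 17 of 20 (two-sided sign-flip permutation test, 100000 resamples, p = 0.00556, adjusted p = 0.0167 over 3 comparisons). With the 300 bp upstream added to each gene the difference was 8.72 points and the call was lost (permutation p = 0.407). The 20 lists are single libraries of strains that share mutations, and the test treats them as independent. The same holds for the tests between HML and MAT.

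Between the HML and MAT copies no difference passed the test on whole genes. As the copies share sequence, their cover can follow from how reads were placed. These tests therefore cannot decide whether the loci are alike or differ. HMLALPHA1 minus MATALPHA1 averaged 0.284 ± 3.29 points (SD, n = 20 lists), higher in 5 lists, lower in 5 and equal in 10 (permutation p = 0.773, adjusted p = 0.773). HMLALPHA2 minus MATALPHA2 averaged -2.19 ± 31.1 points (SD, n = 20 lists), higher in 8, lower in 7 and equal in 5 (permutation p = 0.773, adjusted p = 0.773). With peaks cut to their central 200 bp the alpha2 difference was -6.69 points (permutation p = 0.0278). List by list, the alpha1 difference had the smaller SD. Seen across lists, the cover of HMLALPHA1 and MATALPHA1 had a Pearson correlation of 0.995 and that of HMLALPHA2 and MATALPHA2 one of 0.576, over 20 lists that share their peak caller and, in 6, broad peaks.

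**Figure D2:**
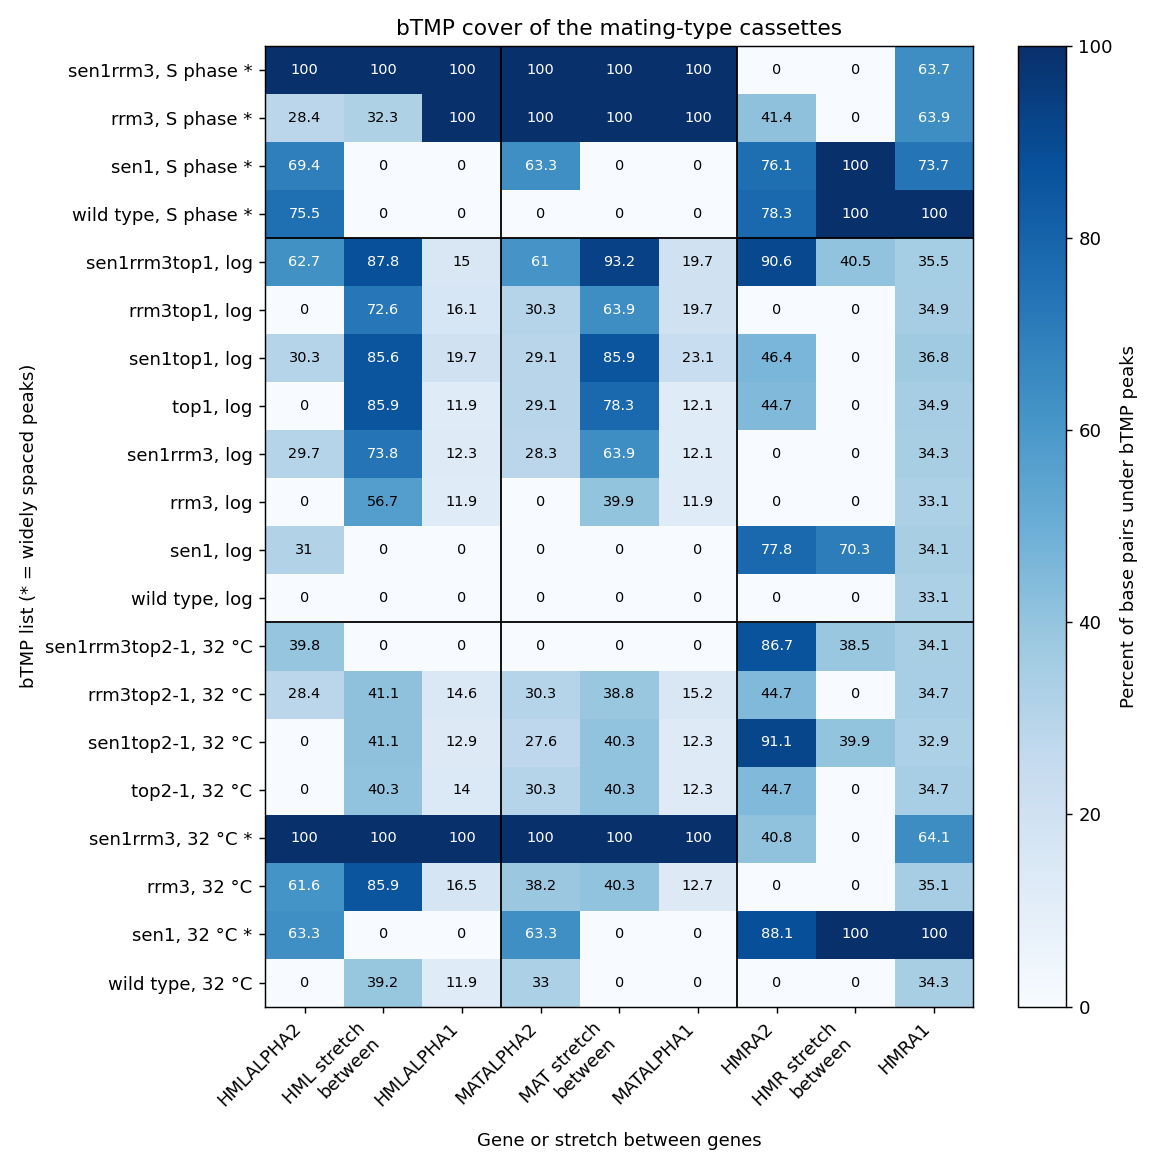
Percentage of base pairs under bTMP peaks for each gene and for the stretch between paired genes (columns) in each of the 20 lists (rows, widely spaced lists starred). HMRA1 is covered in every row, while the stretches between alpha2 and alpha1 at HML and MAT are filled or empty in nearly the same rows.

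Laid over each other base by base, the block from alpha2 through alpha1 spans 1424 bp at both loci. In sen1rrm3 in S phase all 1424 bp were covered at HML and at MAT, and the same held for the list labelled sen1rrm3 at 32 °C. In sen1 labelled 32 °C the same 401 bp were covered at both. In log phase, 411 of 447 covered positions were shared in sen1rrm3, 168 of 212 in rrm3, 0 of 196 in sen1 and 0 of 0 in wild type. With top1, the shared positions were 677 of 765 in sen1rrm3top1, 253 of 487 in rrm3top1, 513 of 540 in sen1top1 and 269 of 474 in top1. Other lists had cover at only one of the loci. In S-phase wild type 478 bp were covered at HML and 0 at MAT, and in sen1rrm3top2-1 at 32 °C 252 bp at HML and 0 at MAT. In wild type at 32 °C, 166 bp at HML and 209 bp at MAT were covered with 0 positions in common. Peaks in the stretch between the genes were matched only where they began past alpha2 at HML and lay inside the block at MAT. This kept 10 lists, all closely spaced, and left out broad peaks. In S-phase rrm3, left out, the peak began 811 bp from the 3′ end of alpha2 at HML and at -353 bp at MAT. In the 10 lists, ends toward alpha1 differed by 0 to 25 bp after alignment (median 6 bp). Their ends toward alpha2 differed by 0 to 120 bp (median 17 bp). Whether the matched peaks stem from 1 locus or from both was not tested.

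**Figure D3:**
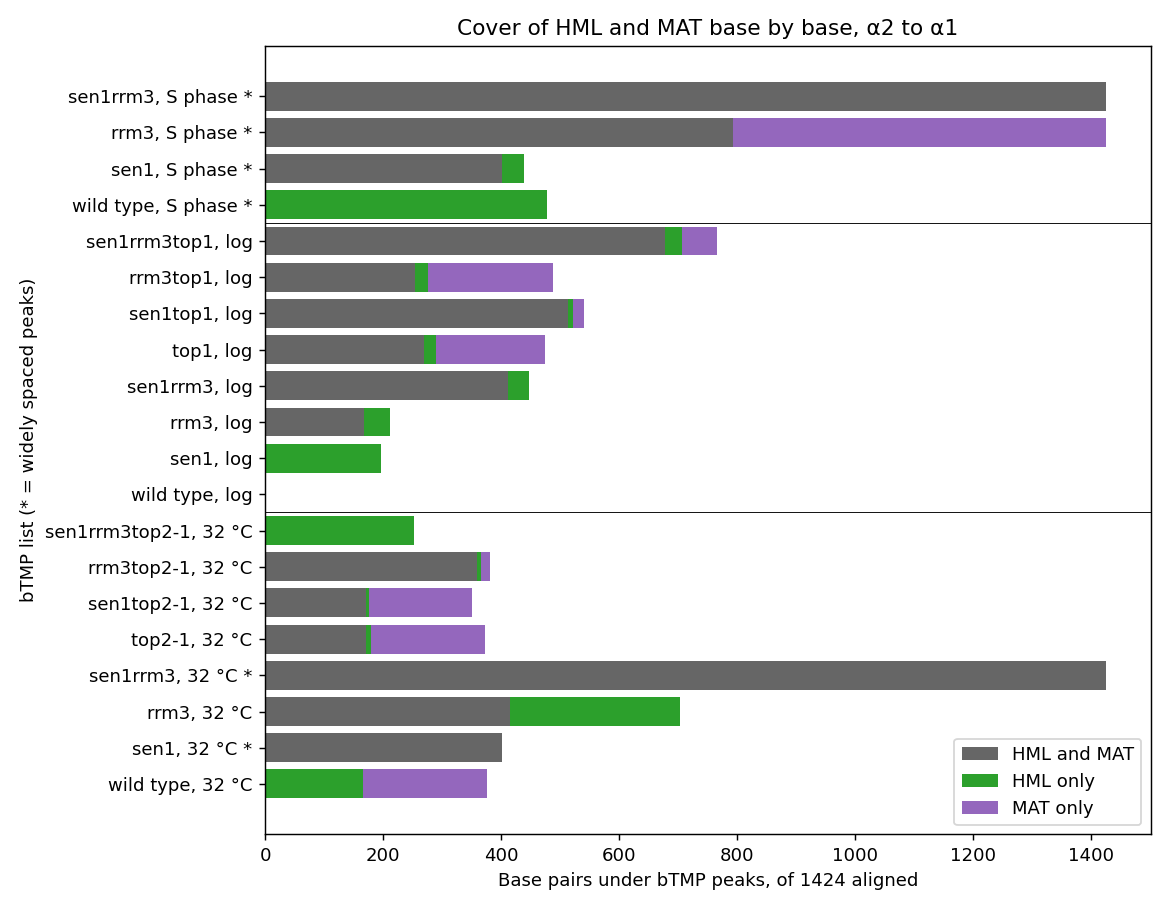
Base pairs of the 1424 bp alpha2 to alpha1 block under bTMP peaks in each list, split by whether the aligned position was covered at HML and MAT, at HML only or at MAT only. The shared part reaches all 1424 bp in the sen1rrm3 lists from S phase and 32 °C and is 0 in 5 lists.

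The end of alpha2 and the whole of a2 form a block present at all 3 loci, taken here as the 360 bp of a2. How far shared sequence runs beyond it was not checked. Peaks touched it at 1 locus or more in 18 of 20 lists and at all 3 in 7. HML and MAT were both touched in 10 lists, HML without MAT in 3 and MAT without HML in 5. The log-phase lists of rrm3 and wild type were the 2 with no peak over it at any locus.

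The stretch between alpha2 and alpha1, from which both are transcribed, is 263 bp long. In S phase it was covered at HML at 100% in sen1rrm3, 32.3% in rrm3, 0% in sen1 and 0% in wild type. At MAT the S-phase values were 100% in sen1rrm3, 100% in rrm3, 0% in sen1 and 0% in wild type. In log phase it was covered at HML at 73.8% in sen1rrm3, 56.7% in rrm3, 0% in sen1 and 0% in wild type. The rrm3 strains were the ones with cover in both conditions.

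The split was not kept in every background. In log phase with top1, the HML stretch had 87.8% in sen1rrm3top1, 72.6% in rrm3top1, 85.6% in sen1top1 and 85.9% in top1, so strains with intact RRM3 were covered as well. At 32 °C it had 100% in sen1rrm3, 85.9% in rrm3, 0% in sen1 and 39.2% in wild type. With top2-1 it had 0% in sen1rrm3top2-1, 41.1% in rrm3top2-1, 41.1% in sen1top2-1 and 40.3% in top2-1. In all, 9 of 10 rrm3 lists and 5 of 10 lists without rrm3 had a peak over the HML stretch, and 9 and 4 over the MAT stretch. By the authors' score, 24.7% to 95.9% of a list's peaks scored as high as the HML stretch peak (median 65.55%). For the MAT stretch peak it was 16.5% to 97.2% (median 75.5%). Many of these peaks thus ranked low, and whether their presence or absence turns on the peak threshold was not tested.

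The stretch between a2 and a1 at HMR was filled in other lists. It had 0% in sen1rrm3, 0% in rrm3, 100% in sen1 and 100% in wild type in S phase. In log phase it had 40.5% in sen1rrm3top1 and 70.3% in sen1, and 0% in the 6 others. Over the 20 lists, 12 had a peak over the HML stretch without one over the HMR stretch, 5 had the reverse, 2 had both and 1 had neither. The 5 were S-phase wild type and the lists labelled sen1 from S phase, log phase and 32 °C, and sen1rrm3top2-1.

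Gene by gene, the rrm3 pairs compare lists that differ in rrm3 alone, 10 pairs in all. HMLALPHA1 averaged 38.6% ± 42.6 with rrm3 and 7.05% ± 7.74 without (SD, n = 10 lists each), a mean difference of 31.6 points. It was higher with rrm3 in 8 pairs and lower in 2. In 3 of the 8 pairs cover was 100% with rrm3 and 0% without: S-phase rrm3, S-phase sen1rrm3 and sen1rrm3 labelled 32 °C. In the other 5 pairs the gain was 0.568 to 12.3 points. Cut to the central 200 bp of each peak, the mean difference was 3.67 points, against 31.6 with full widths.

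MATALPHA1 followed the same course, with 39.1% ± 42.4 with rrm3 and 5.98% ± 8.34 without (SD, n = 10 lists each), higher in 8 pairs and lower in 2. HMLALPHA1 was touched in 9 rrm3 lists and 5 others, and MATALPHA1 in 9 and 4. A gene touched in at least 9 rrm3 lists and at least 4 fewer others is 0.766% of protein-coding genes, which is printed for scale only, since the rrm3 values led to these genes being listed.

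HMLALPHA2 averaged 45.1% ± 35.7 with rrm3 and 27.0% ± 31.9 without (SD, n = 10 lists each). It was higher with rrm3 in 6 pairs, lower in 2 and equal in 2. At 32 °C all 4 pairs were higher, with 61.6% in rrm3 against 0% in wild type, 100% in sen1rrm3 against 63.3% in sen1, 28.4% in rrm3top2-1 against 0% in top2-1, and 39.8% in sen1rrm3top2-1 against 0% in sen1top2-1. In S phase the pairs went opposite ways, with 28.4% in rrm3 against 75.5% in wild type, and 100% in sen1rrm3 against 69.4% in sen1. In log phase 1 of 4 pairs moved by more than 10 points, with 62.7% in sen1rrm3top1 against 30.3% in sen1top1. Without the S-phase wild-type list the mean difference was 25.4 points, against 18.1 with it.

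MATALPHA2 averaged 48.8% ± 39.4 with rrm3 and 27.6% ± 23.3 without (SD, n = 10 lists each), higher in 7 pairs, lower in 1 and equal in 2. The largest difference was in S phase, at 100% in rrm3 against 0% in wild type, and without the S-phase wild-type list the mean difference was 12.5 points in place of 21.2. HMRA1 averaged 43.3% ± 14.2 with rrm3 and 51.4% ± 28.4 without (SD, n = 10 lists each), and the 3 pairs that differed by over 10 points all joined broad lists and were lower with rrm3. HMRA2, which has the sequence of the end of alpha2, went the other way from the alpha2 genes. It averaged 30.4% ± 36.3 with rrm3 and 54.7% ± 33.7 without (SD, n = 10 lists each). Its cover was lower with rrm3 in 6 pairs, higher in 1 and equal in 3. A gene was counted as consistently changed with a shift of 10 points or more in one direction in 7 or more of the 10 pairs, and in the opposite direction in no more than 1. By that rule none of the 5 genes changed with rrm3, and 0.15% of protein-coding genes were consistently higher and 0.133% lower. With the 300 bp upstream added, which takes in the stretch between the genes, HMLALPHA2 passed with 8 pairs and MATALPHA2 with 7, where 12 genes, or 0.2% of protein-coding genes, were consistently higher. Nothing is read from this share, since these values chose the set.

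**Figure D4:**
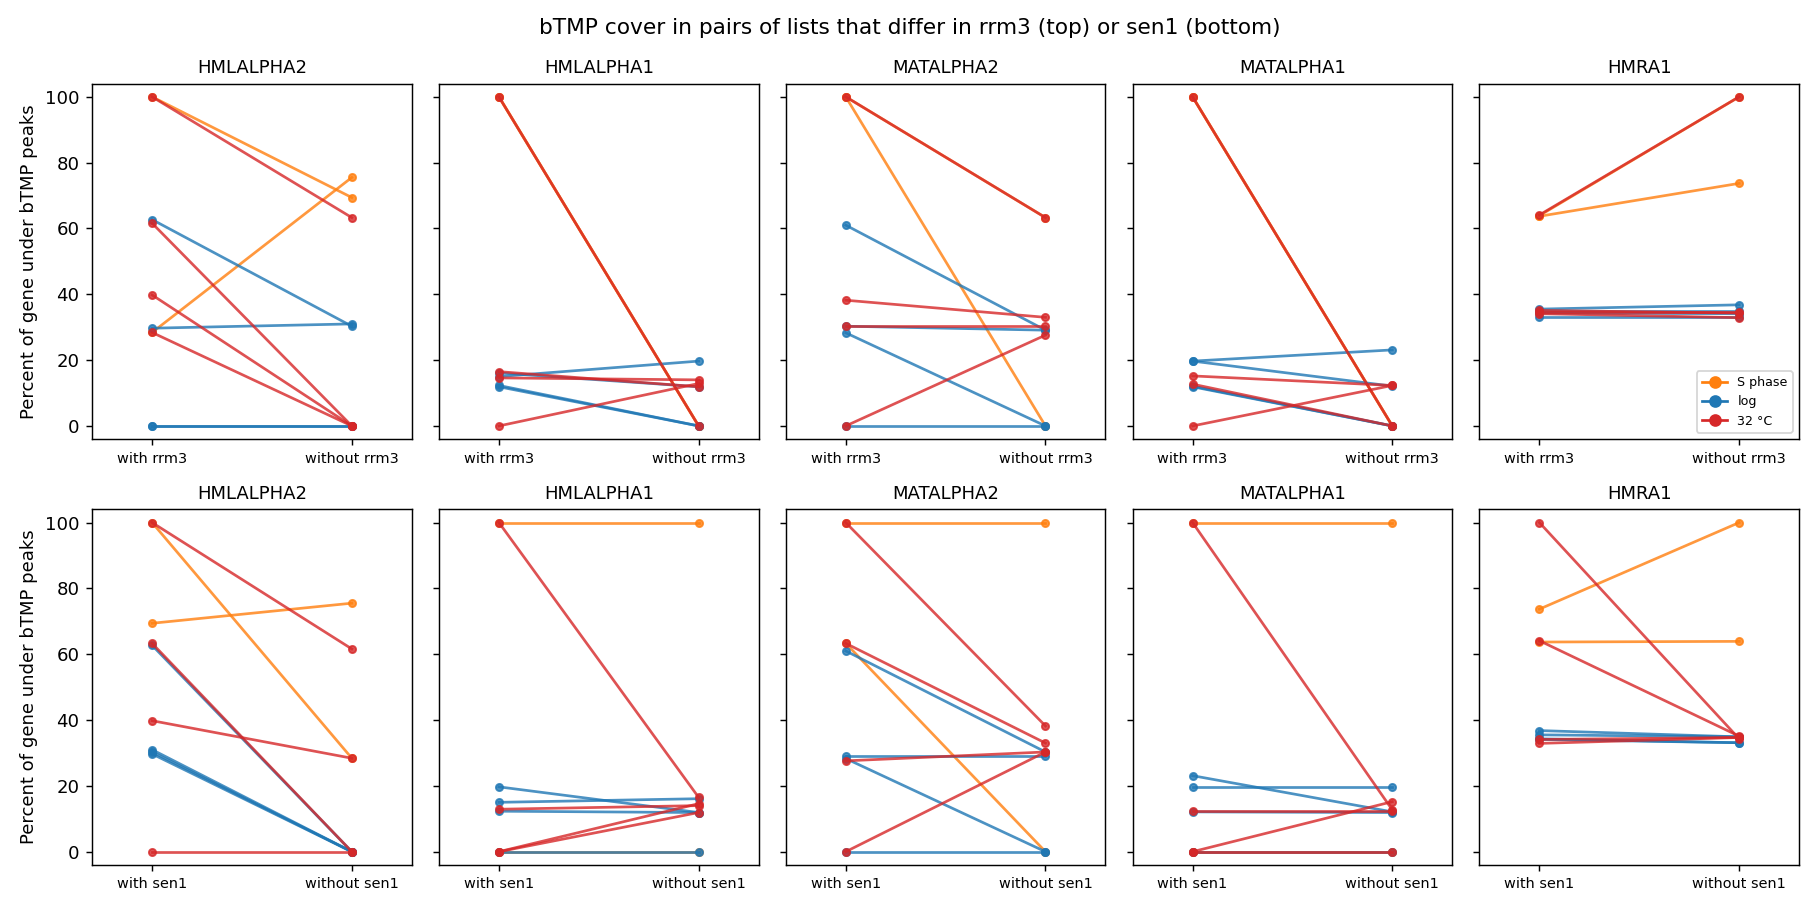
Percentage of each gene under bTMP peaks in lists with a mutation (left) and in their partners without it (right), joined by lines, for rrm3 (top row) and sen1 (bottom row). Colours give the growth condition and some lines coincide. HMRA1 stays near 35% in both columns in closely spaced lists, and HMLALPHA2 is higher with sen1 by at least 10 points in 8 of 10 pairs.

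Among the members, the largest mean change with sen1 was in HMLALPHA2. It averaged 52.6% ± 32.3 with sen1 and 19.4% ± 28.6 without (SD, n = 10 lists each), a mean difference of 33.2 ± 26.7 points. It was higher by at least 10 points in 8 pairs and lower by as much in none, where 0.433% of protein-coding genes were consistently higher with sen1 and 0.0167% lower. These shares are given for scale only, as the sen1 values of HMLALPHA2 were among those that chose the set. All 4 log-phase pairs were higher: 62.7% in sen1rrm3top1 against 0% in rrm3top1, 30.3% in sen1top1 against 0% in top1, 29.7% in sen1rrm3 against 0% in rrm3, and 31.0% in sen1 against 0% in wild type. These log-phase lists are all closely spaced. Without the pairs that use the broad lists labelled 32 °C, the mean difference was 28.8 points, with 6 of 8 pairs higher. With peaks cut to their central 200 bp it was 7.42 points, with 4 of 10 pairs higher by 10 points, and the rule was no longer met.

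The other members showed less with sen1, but HMRA2, shown for comparison, had a mean difference of like size. HMRA2 averaged 59.8% ± 36.1 with sen1 and 25.4% ± 28.7 without (SD, n = 10 lists each). Its mean difference was 34.4 ± 44.1 points. By at least 10 points it was higher in 6 pairs and lower in 1, so the rule was not met. The stretch between a2 and a1 was touched in 6 sen1 lists and 1 other. That between alpha2 and alpha1 was touched in 6 and 8 at HML, and in 6 and 7 at MAT. MATALPHA2 averaged 47.3% ± 36.2 with sen1 and 29.1% ± 29.2 without (SD, n = 10 lists each), higher in 5 pairs, lower in 2 and equal in 3. HMLALPHA1 averaged 26.0% ± 39.7 with sen1 and 19.7% ± 28.8 without, and MATALPHA1 26.7% ± 39.6 and 18.4% ± 29.5 (SD, n = 10 lists each). Without the broad lists labelled 32 °C these differences were -1.09 and -0.497 points. The list labelled sen1rrm3 at 32 °C decided the direction, since without its pair alone the differences were -2.29 points for HMLALPHA1 and -0.442 for MATALPHA1. HMRA1 averaged 50.9% ± 23.3 with sen1 and 43.9% ± 21.8 without, a mean difference of 7.04 points that was -3.03 without the same lists.

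With top1, in log phase and in closely spaced lists only, MATALPHA2 was higher in all 4 pairs by 29.1 to 32.7 points. It was covered at 61.0% in sen1rrm3top1 against 28.3% in sen1rrm3, at 30.3% in rrm3top1 against 0% in rrm3, at 29.1% in sen1top1 against 0% in sen1, and at 29.1% in top1 against 0% in wild type. The mean difference was 30.3 ± 1.71 points (SD, n = 4 pairs; two-sided exact sign-flip permutation p = 0.125, the smallest that 4 pairs allow, so 0.05 cannot be reached). The rule of at least 10 points in 3 of 4 pairs and none the other way called MATALPHA2 higher, as it did for 5.73% of protein-coding genes, with 0.8% called lower. With peaks cut to their central 200 bp the mean difference was 11.3 points and 1 of 4 pairs reached 10 points, so the rule was no longer met. HMLALPHA2, the copy at HML, was higher in 1 pair, lower in 1 and equal in 2 (mean 8.10 points, exact permutation p = 1). HMLALPHA1 was higher with top1 in 4 of 4 pairs by 2.65 to 19.7 points and MATALPHA1 by 7.58 to 23.1 points (exact permutation p = 0.125 for each). HMRA1 was higher in 4 of 4 pairs by 1.23 to 2.67 points (exact permutation p = 0.125). Without the sen1rrm3top1 list, which had a peak over TOP1, the mean differences were 29.5 points for MATALPHA2, -0.211 for HMLALPHA2, 11.9 for HMLALPHA1, 14.3 for MATALPHA1 and 2.12 for HMRA1.

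With top2-1, at 32 °C, 2 of the 4 pairs join unlike lists: the strains with sen1 had broad peaks without top2-1 and narrow ones with it. HMLALPHA2 averaged 17.1% ± 20.2 with top2-1 and 56.2% ± 41.5 without (SD, n = 4 lists each), lower in 3 pairs and equal in 1 (exact permutation p = 0.25), and the rule that called it lower took 3.9% of protein-coding genes, and the same rule called 0.666% higher. Over the 2 pairs of like spacing its mean difference was -16.6 points, and with peaks cut to 200 bp it was -11.2 points, with 2 of 4 pairs lower by 10 points, which no longer met the rule. MATALPHA2 was lower in 4 of 4 pairs, with differences of -100 to -2.69 points (exact permutation p = 0.125) and a mean of -5.29 points over the pairs of like spacing. HMLALPHA1, MATALPHA1 and HMRA1 differed by -21.7, -18.2 and -24.3 points on average (exact permutation p = 0.875, 1 and 0.375), and over the 2 pairs of like spacing by 0.0947, 7.39 and 0 points. HMRA2 was higher with top2-1 in 4 of 4 pairs, with 86.7% in sen1rrm3top2-1 against 40.8% in sen1rrm3, 44.7% in rrm3top2-1 against 0% in rrm3, 91.1% in sen1top2-1 against 88.1% in sen1, and 44.7% in top2-1 against 0% in wild type.

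Neighbouring genes did not share one pattern. YCL068C, which lies beside HMLALPHA2, was touched in 16 lists, with a median of 23.3%, and BUD5, a bud-site gene that adjoins MATALPHA2, in 18, with 28.2%. GIT1 was touched in 19 lists (median 52.2%). CHA1, a serine and threonine deaminase gene beyond HML, was touched in 4 lists, all broad, and YCR041W, which overlaps the end of MATALPHA1, in 6. OCA4, YCR095W-A and the tRNA gene beside HMR were touched in none of the 20. Past the end of alpha1, the next 500 bp were touched in 12 lists at HML and in 6 at MAT, and the 500 bp past a1 in 14. Whether the loci also share sequence in these flanks and neighbours was not checked, so peaks there may be ambiguous in position too.

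Among the controlling genes, bTMP cover was present at MCM1 and MFA2 in 20 of 20 lists, with medians of 45.6% and 18.4%. STE18, STE4, SIR2 and SIR4 were touched in 19 each, and HO, RME1 and SIR1 in none. Of all protein-coding genes, 16.6% were touched in at least 19 lists. No gene of the a-specific, alpha-specific, haploid and regulator or silencing lists was consistently changed with rrm3, sen1 or top1. Over all protein-coding genes, 0.15% were higher and 0.133% lower with rrm3, 0.433% and 0.0167% with sen1, and 5.73% and 0.8% with top1. With shares this small and lists this short, nothing is read from the absence. With top2-1, where 2 of the 4 pairs join broad with narrow lists, MFA1 and MCM1 were lower by the rule, as were 3.9% of protein-coding genes. The median over genes of the mean bTMP cover was 7.89% for the a-specific, 8.35% for the alpha-specific, 12.2% for the haploid and regulator and 6.92% for the silencing genes, against 8.81% over all protein-coding genes.

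The genes whose bTMP cover moved most like that of the cassette genes were found by Pearson correlation over the 20 lists among 3947 genes with cover in at least 5. For HMLALPHA2 they were YEF3 (0.849), PIF1 (0.818) and PIN2 (0.817). For HMLALPHA1 they were BNA7 (0.985), TRP5 (0.983) and CYS4 (0.98), and for HMRA1 SQT1 (0.977), ALD5 (0.963) and PUT4 (0.959). The 3 highest values of HMLALPHA1, each 100%, and the 6 highest of HMRA1 all come from broad lists, so the points share peak width as well as strain.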

How the data were processed

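Peak lists of 4 Rpb1 and 20 bTMP immunoprecipitates were analysed, 1 library per strain and condition. Bowtie2, Picard, SAMtools and deepTools are named in the submitters' processing notes. The peak caller, its settings, the genome build, the placement of reads with several matches and the read depth could not be taken from the sources used here. Each deposited peak carries a score from the authors, of unstated meaning, which served only to rank peaks inside a list. Without depth, cover carries no counting interval.

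The members and gene lists were chosen with earlier results of these data known. Genes were placed by the RefSeq table of R64, with strand read from systematic names. As a check on the build, 132 ribosomal protein genes had a mean wild-type Rpb1 cover of 99.2%, against 80.2% and 82.9% when moved by 400 bp to either side. Cover is the percentage of base pairs under peaks, in the gene body, in the stretch between paired genes, or with 300 bp upstream added. HML and MAT were aligned by the starts of their genes. No sequence was used. Mitochondrial peaks were left out.

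Pairs of lists that differ in 1 mutation served as the repeats of a contrast. The top1 and top2-1 contrasts were tested by exact permutation of the signs of the pair differences (two-sided), and differences between cassettes within lists a permutation test with Benjamini-Hochberg adjustment over 3. The text names the 5 members, HMRA2, the neighbours, up to 4 genes per list by mean bTMP cover and the 3 genes most like each of HMLALPHA2, HMLALPHA1 and HMRA1, other listed genes being named by their Rpb1 or bTMP counts after these were seen. Alternatives were the 300 bp upstream, the upper part of each list by score, lists of 2678 peaks, peaks cut to 200 bp, pairs left out, and, chosen after the data were seen, leaving out doubtful lists. Python 3.11.15, numpy 2.4.6, pandas 2.3.3 and scipy 1.17.1 were used.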

Additional observations from a re-analysis of the deposited data

Results flagged for a closer look

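The effect of sen1 on bTMP cover of HMRA1 differed in direction between conditions. In log phase cover was higher with sen1 in 4 of 4 pairs, by 1.18 points on average, and in S phase lower in 2 of 2 pairs, by -13.3 points on average. The difference between the conditions was not tested, the S-phase lists have broad peaks and the log-phase lists narrow ones, and the S-phase mean rests on wild type, where 1 broad peak covered the gene.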

How the results depend on the processing

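Directions with rrm3 were kept under every alternative run for all 5 genes. Leaving out 1 of 4 pairs turned the top1 difference of HMLALPHA2 (-0.211 to 11 points) and the top2-1 differences of HMLALPHA1 (-33.3 to 4.36) and MATALPHA1 (-28.4 to 9.03). With 300 bp upstream, HMRA1 was at -1.62 points with top1, and HMRA1 minus HMLALPHA1 at 8.72. With peaks cut to 200 bp, top2-1 differences were 5.97 for HMLALPHA1, 6.77 for MATALPHA1 and 3.64 for HMRA1, and HMLALPHA2 minus MATALPHA2 was -6.69 and passed the threshold (permutation p = 0.0278). With sen1 the same cut gave -7.31 for HMLALPHA1, -3.45 for MATALPHA1 and -5.38 for HMRA1. Over pairs of like spacing, which is also what remains without the broad lists labelled 32 °C, the top2-1 differences were 0.0947, 7.39 and 0. HMLALPHA2 minus MATALPHA2 was 3.85 with the upper part of each list and 0.979 with lists of equal length. At 20 points in place of 10, 2 genes in place of 9 were consistently higher with rrm3, 2 in place of 26 higher with sen1 and 0 in place of 1 lower with sen1. With 300 bp upstream, 25 in place of 8 genes were lower with rrm3 and 17 in place of 26 higher with sen1. The cause of these changes was not tested. Peak lists give no level below the caller's threshold, and cover depends on peak width.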
